A study of Mus musculus with 6 samples.

Results

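The genes described here are 5 ligands of the epidermal growth factor (EGF) family (Hbegf, Areg, Ereg, Btc and Tgfa), their receptor gene Egfr, and Adam17 and Adam10, the metalloproteases that release such ligands from the cell surface. They were taken by symbol, and all 8 were found among the 23413 genes of the deposited count table. The group was chosen by measured values, the opposite differences of Hbegf and Areg when vitamin D3 was added to LPS, so values of that comparison are given for the 8 genes as a description, without a test. RNA-seq had been made from alveolar macrophages, phagocytes that live in the air sacs of the lung, collected by lavage from wild-type mice. Control cells, cells given 100 ng/mL lipopolysaccharide (LPS, a bacterial outer membrane component) for 4 h in vitro, and cells given the same LPS with 50 nM vitamin D3 (VD3) gave 2 libraries each, 6 in all. All groups carry the same wild-type genotype, and the sources used here do not give the medium, duration and vehicle of the control cells, the age and sex of the mice or any pooling of animals.

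EGF family ligands are made as membrane-anchored precursors. A metalloprotease cuts the precursor close to the membrane, and the freed EGF domain can then bind a receptor of the ErbB family on the same or a neighbouring cell. ADAM17 is known as the main sheddase of HB-EGF, amphiregulin, epiregulin and TGF-alpha, and ADAM10 as that of betacellulin and EGF. In the lung these ligands are known for their part in epithelial repair, with Egfr carried mainly by epithelial and stromal cells. RNA counts show transcript levels only, and neither the precursor proteins nor their shedding were measured.

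Areg, Ereg and Btc lie in a cluster of ligand genes on chromosome 5 of the mm10 build: Ereg, the epiregulin gene, at 91074617 to 91093649, Areg, the amphiregulin gene, at 91139599 to 91148432 and Btc, the betacellulin gene, at 91357261 to 91402994. RefSeq windows of the GRCm38.p6 build before the gene start were matched for 6 of the 8 genes, and Hbegf and Ereg were not among them. The 250 bases before the start of Areg, which was induced by LPS, and of Btc, which lies in the same cluster and was near 0 in every library, are shown for comparison, written 5′ to 3′ on the strand of the gene, with motif matches in capitals. The Areg window is chr5:91139349-91139598 on the plus strand and the Btc window chr5:91402995-91403244 on the minus strand.
Areg: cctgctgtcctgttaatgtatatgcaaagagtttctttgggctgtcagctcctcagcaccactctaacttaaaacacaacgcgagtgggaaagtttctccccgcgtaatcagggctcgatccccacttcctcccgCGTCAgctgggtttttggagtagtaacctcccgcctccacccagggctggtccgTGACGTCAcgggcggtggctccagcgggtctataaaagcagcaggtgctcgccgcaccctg
Btc: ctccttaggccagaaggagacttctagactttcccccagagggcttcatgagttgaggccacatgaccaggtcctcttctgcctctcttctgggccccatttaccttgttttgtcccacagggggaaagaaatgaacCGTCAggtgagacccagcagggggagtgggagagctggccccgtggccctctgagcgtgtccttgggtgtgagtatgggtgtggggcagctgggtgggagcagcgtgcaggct

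Both strands were searched for the cyclic AMP response element (CRE) TGACGTCA and its core TGACG, which the full element contains on both strands, and for AP-1 (TGANTCA), NF-kB (GGGA and CC with 4 bases between) and the DR3 element of the vitamin D receptor. The Areg window held the full CRE from 61 to 54 bases before the start and another core match from 115 to 111 bases before it. A full CRE was present in 1.55% of the 32851 promoter windows of the table, and a core match in 17.8%. In the Btc window the search found a core match alone, from 113 to 109 bases before the start. The AP-1, NF-kB and DR3 patterns, present in 6.75%, 17.6% and 0.0396% of all windows, were not among the letters of either window. Of the other windows, that of Adam10 held a core match and an NF-kB match, and those of Adam17, Tgfa and Egfr held no match. A match is a string of letters and was not measured as a bound site.

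Total counts ranged from 5022314 to 5465223 per library, and 10724 genes had enough counts to be tested. The libraries of a group carry no statement that mice or cultures were separate, and p-values rest on a spread between libraries that may be technical. Libraries LPS 1 and LPS 2 stood apart from each other: their difference followed the GC content of the transcripts across genes with a Spearman's rho of 0.684, against 0.25 in control and 0.189 in LPS plus VD3. The title of LPS 1 also carries a number outside the run of the other 5 libraries, and what that number stands for is not stated. The agents left their marks, with Il6 at 4 and 0 counts in control, 5697 and 5926 in LPS, then 5558 and 6671 in LPS plus VD3, and Cyp24a1, the VD3-induced 24-hydroxylase, at 2 and 3, 0 and 0, and 112 and 124 counts. Summed over 12 macrophage markers found in the table, the level was 15000 to 20000 CPM (counts scaled to the library size) in every library. Single markers of this list moved in either direction. Marco stood at 1430 and 1440 CPM in control, 3530 and 3470 in LPS, then 3350 and 3910 in LPS plus VD3. Siglec5 stood at 213 and 207 CPM in control, 91.7 and 83.1 in LPS, then 96.1 and 100 in LPS plus VD3. Of 10 mast cell and basophil markers, cells known as sources of amphiregulin, 8 had 0 counts in all libraries and the list summed to at most 0.41 CPM. For T cells, natural killer cells and innate lymphoid cells, 3 of 11 markers found, Cd3e among them, had 0 counts, and the list summed to 29.3 and 31.1 CPM in control, 43.5 and 75.9 in LPS and 40.6 in both LPS plus VD3 libraries. Of 15 epithelial markers, 3 were tested and Sftpc had 0 counts, and the list summed to 317 and 328 CPM in control and 125 to 168 CPM in the treated libraries. Cdh1 alone held 222 and 238 CPM of this sum in control and 30.4 to 49.8 CPM in the treated libraries, so the fall came mostly from this gene. The 6 monocyte markers summed to 704 and 700 CPM in control, 2200 and 1940 in LPS, then 2590 and 3080 in LPS plus VD3. The part of these shifts in the results that follow was not tested.

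Among the ligands, Ereg had the highest level per kb of exon in both treated groups, and Hbegf had the largest difference between them. Hbegf encodes HB-EGF, a heparin-binding ligand of Egfr and Erbb4. Its gene lies on chromosome 18 (36504927 to 36515805). Hbegf had 46 and 35 counts in the control libraries, 79 and 76 in LPS, then 945 and 989 in LPS plus VD3. In TMM-scaled CPM these were 7.88 and 5.61, then 16.2 and 15.4, then 198 and 197. The 3 groups did not overlap, and the LPS plus VD3 libraries were the highest. LPS alone raised Hbegf by 1.23 ± 0.22 on the log2 scale, which is 2.34-fold (SE; edgeR quasi-likelihood test, adjusted p = 0.0018 after Benjamini-Hochberg over all genes tested). The LPS libraries of this test are also those against which the VD3 difference of Hbegf was noticed. In bulk RNA, a change in the number of cells that express a gene and a change in RNA per cell cannot be told apart.

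Areg encodes amphiregulin, a ligand of Egfr known from type 2 immunity and tissue repair. Control libraries held 6 and 3 Areg counts, LPS libraries 230 and 143, and LPS plus VD3 libraries 74 and 74, which is 1.03 and 0.481, 47.2 and 28.9, and 15.5 and 14.7 CPM. Every treated library was above both control libraries, and both LPS plus VD3 libraries were below both LPS libraries. LPS raised Areg by 5.63 ± 0.41 in log2 units (edgeR adjusted p = 4.19e-06), a 49.5-fold difference that rests on 9 control counts. Areg entered the tests through its treated libraries, since its control counts were below the filter, and its LPS libraries are also those against which its VD3 difference was noticed, so this p is not independent of how the gene was chosen.

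Ereg encodes epiregulin, which binds Egfr and Erbb4. Counts of 22 and 23 in control stood against 2757 and 3899 in LPS, then 2155 and 2750 in LPS plus VD3. The corresponding CPM were 3.77 and 3.69, 566 and 789, and 451 and 547. The highest LPS plus VD3 library was below the lowest LPS library, but by less than the libraries of either group differed. LPS raised Ereg by 7.50 ± 0.27 on the log2 scale, 181-fold (edgeR adjusted p = 3.31e-08), the largest LPS difference among the 5 genes of the group that could be tested. Against control, Ereg was also higher in LPS plus VD3, by 7.06 ± 0.26 (edgeR adjusted p = 4.97e-08). This comparison shares its control libraries with the previous one.

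The other ligands and the receptor were scarcely detected. Besides Btc, Tgfa lies on chromosome 6 (86195038 to 86275744) and Egfr on chromosome 11 (16752203 to 16913907). Btc had 0 and 3 counts in control, 0 in both LPS libraries and 3 and 0 in LPS plus VD3. Tgfa, the gene of TGF-alpha, had 1 count in each LPS library and 0 in the other 4. Egfr had 2 and 1, 4 and 5, and 1 and 4 counts. These 3 genes were too low to test, and differences between groups were not detectable at this depth, at which 0 counts in a library allow up to 3. With no filter beyond 1 count, Egfr had a log2 difference of 1.80 ± 0.78 after LPS (edgeR adjusted p = 0.16). The related receptors were as low: Erbb2 had 1 to 5 counts per library, Erbb3 2 to 9, and Erbb4 0 in all 6.

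**Figure D1:**
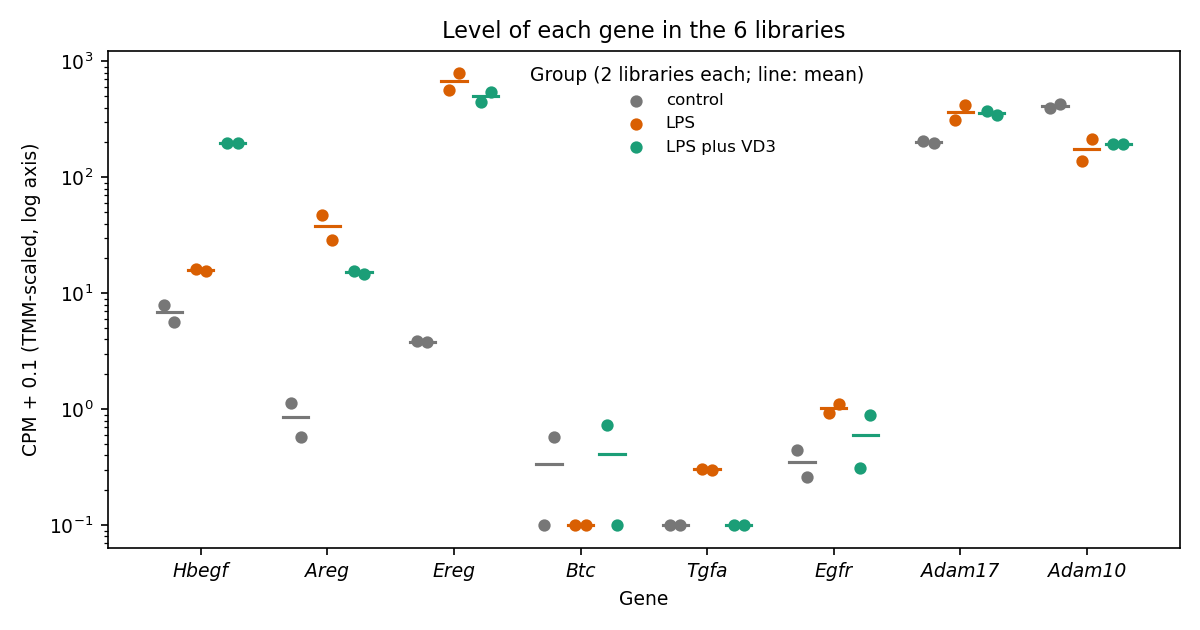
CPM plus 0.1 (TMM-scaled, log axis) of the 8 genes in each of the 6 libraries, with points for libraries, lines for the means of 2 libraries and colours for control, LPS and LPS plus VD3. Hbegf stands at 198 and 197 CPM in LPS plus VD3, Ereg at 566 and 789 CPM in LPS, and Btc, Tgfa and Egfr stay near 0 in every library.

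The sheddases moved in opposite directions after LPS. Adam17 (chromosome 12, 21323509 to 21373632) had 1203 and 1238 counts in control, 1515 and 2076 in LPS, then 1776 and 1725 in LPS plus VD3, or 206 and 198, 311 and 420, and 372 and 343 CPM. All treated libraries were above both controls, and the LPS plus VD3 libraries lay between the LPS libraries. LPS raised Adam17 by 0.85 ± 0.17 in log2 units (edgeR adjusted p = 0.00342), a 1.81-fold difference. Without control 2 the difference was 0.83 and the call was lost (edgeR adjusted p = 0.0525, with a range over 14 alternatives of 1.41e-05 to 0.0525).

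Adam10 (chromosome 9, 70678944 to 70780229) had 2308 and 2688 counts in control, 670 and 1069 in LPS, then 921 and 977 in LPS plus VD3. These are 395 and 431, 137 and 216, and 193 and 194 CPM, so that every treated library was below both controls and the LPS plus VD3 libraries again lay between the LPS libraries. After LPS, Adam10 fell by 1.22 ± 0.20 in log2 units (edgeR adjusted p = 0.00109). In LPS plus VD3 against control, Adam17 was higher by 0.82 ± 0.17 (edgeR adjusted p = 0.00403) and Adam10 had -1.09 ± 0.20 (edgeR adjusted p = 0.00206). The Adam17 call was again lost without control 2 (edgeR adjusted p = 0.0567, with a range over 14 alternatives of 1.81e-05 to 0.0567).

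Over the whole table, edgeR called 3411 genes in LPS against control, 31.8% of those tested, with 15.7% higher and 16.2% lower. Of the 8 genes here, Hbegf, Areg, Ereg and Adam17 rose, Adam10 fell, and 3 were too low to test. In LPS plus VD3 against control 35% of all genes were called, and in LPS plus VD3 against LPS 3.83%, with 2.25% of all genes higher and 1.59% lower.

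In LPS plus VD3 against LPS, the comparison from which the group was chosen, Hbegf was 12.5-fold higher, a log2 difference of 3.64 ± 0.19 (SE), and ranked 17 among 10724 genes from the highest. Areg was 2.52-fold lower, at -1.33 ± 0.27, and ranked 147 from the lowest. Ereg was at -0.44 ± 0.18. Adam17 and Adam10 were at -0.03 ± 0.17 and 0.13 ± 0.20, smaller than their SE. Without LPS 1 the Areg difference was -0.95, and without LPS 2 it was -1.64. For Hbegf these values were 3.67 and 3.61. Against control, the LPS plus VD3 libraries were higher by 4.87 ± 0.21 for Hbegf and by 4.30 ± 0.44 for Areg, which like the values above are descriptions.

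**Figure D2:**
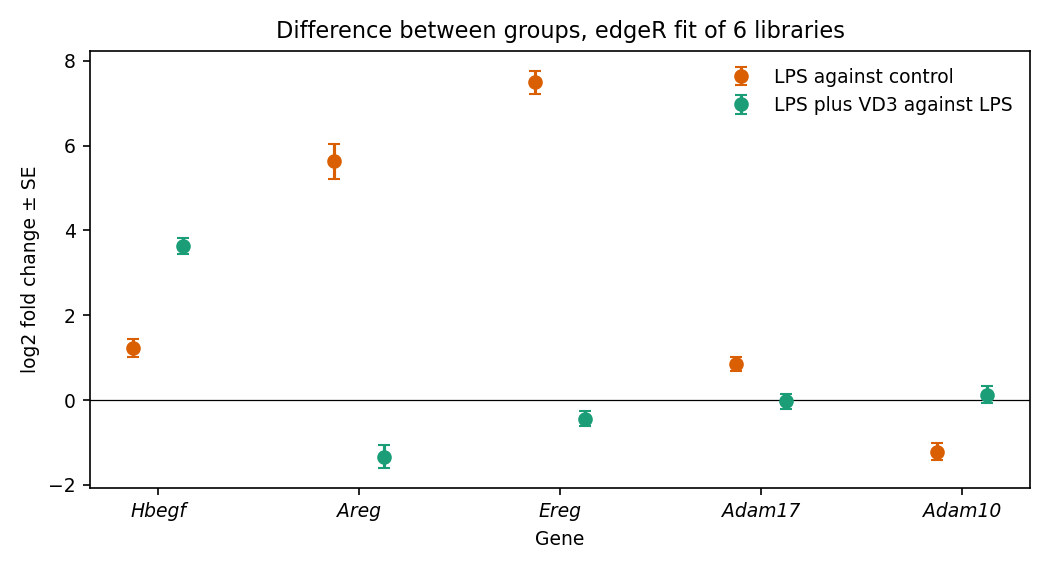
Log2 fold change with its SE from an edgeR fit of all 6 libraries, for the 5 genes with enough counts, in LPS against control (orange) and LPS plus VD3 against LPS (green). After LPS, Ereg stands at 7.50 and Areg at 5.63; with VD3 added, Hbegf stands at 3.64 and Areg at -1.33, and Adam17 and Adam10 lie near 0.

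The libraries LPS 1 and LPS 2 differed for several of these genes. Areg, with a transcript GC content of 48.4%, had 230 counts in LPS 1 and 143 in LPS 2. Ereg (39.2% GC), Adam10 (42.1%) and Adam17 (45.1%) were higher in LPS 2, and Hbegf (49.9%) differed little, at 16.2 and 15.4 CPM. Each LPS difference kept its sign without either LPS library: Areg was at 5.22 without LPS 1 and 5.94 without LPS 2, and Ereg at 7.70 and 7.24.

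Levels of different genes were compared per kb of exon, with exon lengths from 1215 bases for Areg to 10954 for Egfr. In control the order was Adam10 at 89.9 ± 5.45 CPM per kb (SD, n = 2), Adam17 at 44.9 ± 1.20, Hbegf at 2.84 ± 0.676, Ereg at 0.903 ± 0.0142 and Areg at 0.621 ± 0.318. Ereg and Areg differed there by less than the SD of Areg. In LPS, Ereg stood first at 164 ± 38.2, followed by Adam17 (81.1 ± 17.1), Adam10 (38.5 ± 12.1), Areg (31.3 ± 10.6) and Hbegf (6.65 ± 0.249), with overlapping values for Adam10 and Areg. In LPS plus VD3, Ereg stood at 121 ± 16.5, Hbegf at 83.1 ± 0.293, Adam17 at 79.3 ± 4.46, Adam10 at 42.2 ± 0.255 and Areg at 12.4 ± 0.444. Hbegf and Adam17 differed there by less than the SD of Adam17.

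The make-up of the transcripts of these 5 ligands, a sum that leaves out Nrg4, differed between all 3 groups. Summed over the 5 ligands, the level per kb was 5.08 and 3.82 CPM in control, 183 and 221 in LPS, then 206 and 228 in LPS plus VD3, so that the treated groups overlapped. Hbegf held 65.4% and 61.9% of this sum in control, 3.73% and 2.92% in LPS, then 40.5% and 36.4% in LPS plus VD3. Areg held 16.7% and 10.4%, then 21.3% and 10.8%, then 6.2% and 5.33%. Ereg held 18% and 23.4% in control, 75.0% and 86.3% in LPS, then 53.2% and 58.3% in LPS plus VD3. The control shares rest on 74 and 64 ligand counts, the others on 3067 to 4119. As the VD3 values of Hbegf and Areg chose the group, the shares in the LPS plus VD3 libraries are a description.

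**Figure D3:**
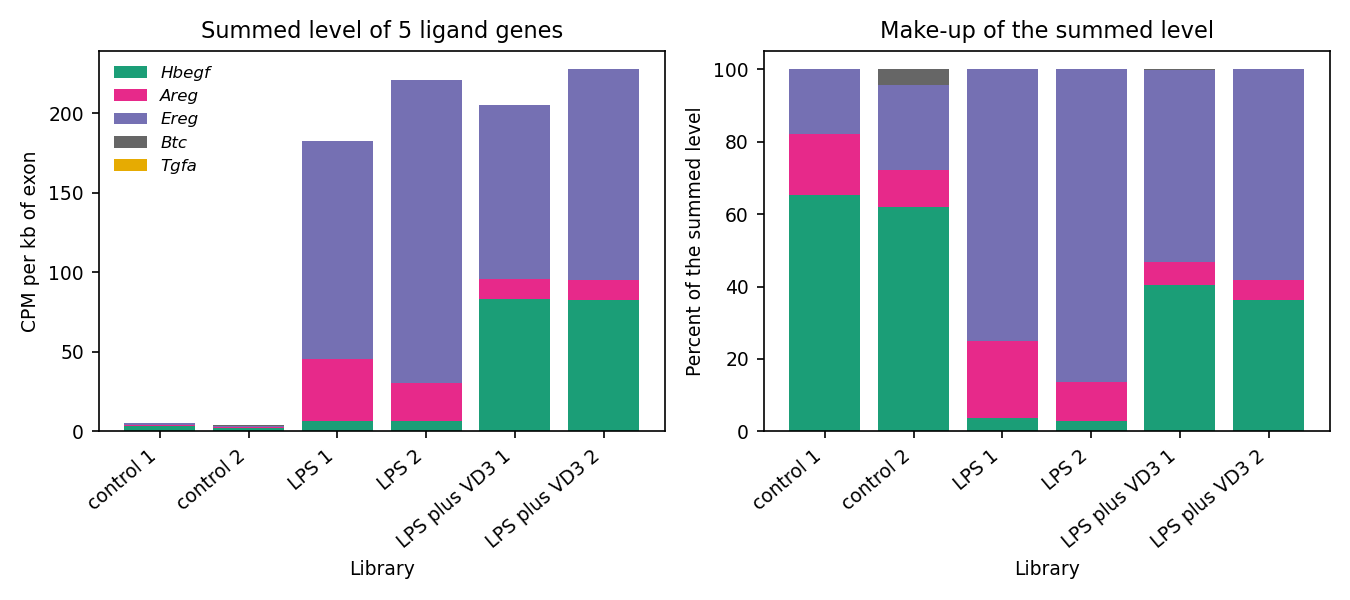
Left, the summed level of the 5 ligand genes in CPM per kb of exon in each library; right, the percent of that sum from each gene. The sum is 5.08 and 3.82 in control and 183 to 228 in the treated libraries, and the Hbegf share is 65.4% and 61.9% in control, 3.73% and 2.92% in LPS, then 40.5% and 36.4% in LPS plus VD3.

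Of 6 further EGF family ligands, Nrg4, which encodes neuregulin 4, a ligand of Erbb4, had enough counts to be tested. Nrg4 had 94 and 111 counts in control, 204 and 215 in LPS, then 200 and 299 in LPS plus VD3. Per kb of exon these were 7.3 and 8.06 CPM, 19.0 and 19.7, and 19.0 and 27.0. In control Nrg4 was thus above Hbegf and above the sum of the 5 ligands (5.08 and 3.82). In LPS it was also above Hbegf (6.83 and 6.47). Nrg4 rose by 1.33 ± 0.21 on the log2 scale after LPS (edgeR adjusted p = 0.000899) and was at 0.25 in LPS plus VD3 against LPS. Epgn, the epigen gene of the chromosome 5 cluster, had 0 counts in both control libraries, 5 and 8 in LPS, then 10 and 3 in LPS plus VD3. Against a floor of 3 counts over the control group, Epgn was 5.33-fold higher in LPS, with its 13 LPS counts taken without their own counting error. It was too low for the tests, and with no filter it missed the threshold (edgeR adjusted p = 0.0518). Egf had 0 to 5 counts per library, and Nrg1, Nrg2 and Nrg3 had at most 2.

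The genes around the ligand cluster were followed because Ereg and Areg rose together after LPS; this set was chosen after their values were seen. Within 500 kb of the Areg start on each side, 13 protein-coding genes of 14 were in the count table, and 8 were tested. Ereg and Areg, for which the set was followed, and the other 6 rose after LPS, while 15.7% of all genes tested were higher. Areg, Cxcl1 and Cxcl5 entered the tests through their treated libraries alone, so the count describes these genes and is no evidence about the region. The other 6 were the neutrophil-attracting chemokine genes Cxcl1 (10.19 ± 0.26), Cxcl2 (9.07 ± 0.22), Cxcl3 (6.64 ± 0.21) and Cxcl5 (4.74 ± 0.50), the platelet factor gene Pf4 (0.86 ± 0.25; edgeR adjusted p = 0.0218) and the folate enzyme gene Mthfd2l (1.28 ± 0.32; edgeR adjusted p = 0.0126), as log2 differences. The Pf4 call was lost without scaling beyond library size, in DESeq2, and without control 1, control 2 or LPS 1 (adjusted p of 0.00507 to 0.182 over 13 alternatives), and the Mthfd2l call without control 1 (0.00297 to 0.128 over 14). Btc and Parm1, on the far side of Areg, were at 3 counts or fewer in every library.

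With VD3 added, 1 of the 6 tested neighbours outside the group was called, where 3.83% of all genes were. Cxcl1 had 2523 and 2504 counts in LPS, against 1156 and 1330 in LPS plus VD3, and fell by 1.02 ± 0.14 in log2 units (edgeR adjusted p = 0.00367). Cxcl1 lost this call without LPS plus VD3 1 or LPS plus VD3 2 (7.4e-07 to 0.0764 over 13 alternatives), with log2 differences between -1.09 and -0.95 throughout. Cxcl2 was at -0.60 ± 0.15 and did not pass (edgeR adjusted p = 0.0527), and Cxcl5 (-0.89 ± 0.31), Cxcl3 (-0.25 ± 0.16), Pf4 (-0.20 ± 0.24) and Mthfd2l (0.38 ± 0.28) did not pass either.

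**Figure D4:**
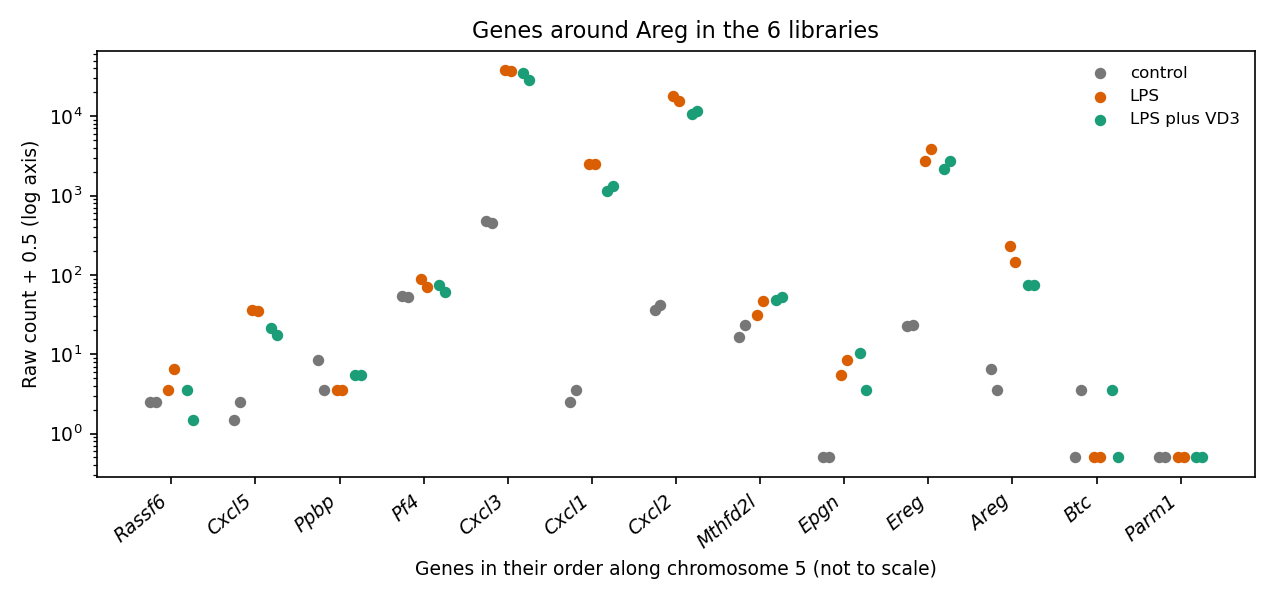
Raw counts plus 0.5 (log axis) of the 13 genes of the count table within 500 kb of the Areg start, in their order along chromosome 5 and not to scale, with a point for each of the 6 libraries. Cxcl1, Cxcl2, Cxcl3, Ereg and Areg lie far above control in the LPS libraries (Ereg 2757 and 3899 against 22 and 23), and Btc and Parm1 lie at 0 to 3 counts.

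Genes that act around the ligands were taken from 10 lists of 123 genes in all, of which 121 were in the table and 88 were tested. After LPS, 31 of the 88 rose and 13 fell, which is 50% called against 31.8% of all genes. Their median log2 difference was 0.33, against 0.006 for all genes. Genes that are low in control, such as Cd40 and Dusp4, entered the tests through their treated libraries, so the counts of this and the single lists are descriptions. Scaling by library size alone, which shifted the median of all genes to -0.289, gave 24 that rose and 24 that fell, and over all genes the share of calls that were higher went from 49.2% to 26.2%. With VD3 added to LPS, 2 rose and 5 fell, 7.95% against 3.83% of all genes. Without LPS plus VD3 1 this count of 7 was 2, without LPS plus VD3 2 it was 0, without LPS 2 it was 41, and with no filter beyond 1 count 4.

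The maturation of ADAM17 and its trigger kinases showed 4 genes of 9 tested higher and 1 lower after LPS, 55.6% called against 31.8% of all genes. Rhbdf2 encodes iRhom2, the cofactor that carries ADAM17 to the surface of immune cells. It had 310 and 292 counts in control, 1015 and 631 in LPS, then 660 and 676 in LPS plus VD3, and rose by 1.75 ± 0.22 on the log2 scale after LPS (edgeR adjusted p = 0.000208). Its relative Rhbdf1 rose by 1.92 ± 0.40 from 10 counts in each control library, the proprotein convertase Furin by 1.02 ± 0.16, and Mapk14, the p38-alpha kinase gene, by 1.55 ± 0.15. Prkca, a protein kinase C gene, had -1.24 ± 0.23. Frmd8, which stabilises iRhoms, was at 0.78 ± 0.27 and missed the threshold (edgeR adjusted p = 0.0512).

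With VD3 added, Map2k3, an activator kinase of p38, was the gene of this list that passed, at -0.94 ± 0.17 (edgeR adjusted p = 0.0139), with 479 and 386 counts in LPS, against 219 and 232 in LPS plus VD3. Its call was lost with no filter (0.053) and without LPS plus VD3 1 (0.134) or LPS plus VD3 2 (0.189). Rhbdf1 and Rhbdf2 were at -1.24 ± 0.38 and -0.30 ± 0.22 and Furin at -0.52 ± 0.16, and none of these passed. The median of the list was 0.78 after LPS and -0.52 with VD3 added, against 0.006 and -0.003 for all genes. Both medians use the LPS libraries, with opposite sign, so a deviation of those libraries moves them apart. Every tested gene of the list had a higher CPM in LPS 1 than in LPS 2, such as Rhbdf2 at 208 and 128. The part of this in the 2 medians was not tested.

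Tetraspanins of the TspanC8 group are known to bring ADAM10 to the surface, and 3 of 6 had enough counts. After LPS, Tspan14 fell by 1.65 ± 0.18 and Tspan5 by 0.82 ± 0.16 on the log2 scale, and Tspan17 was at 0.15 ± 0.40. Tspan14 had 970 and 991 counts in control, 291 and 217 in LPS, then 144 and 140 in LPS plus VD3. With VD3 added it fell further, by 0.84 ± 0.19 (edgeR adjusted p = 0.0413). That call was lost in 7 of 14 alternatives, without either control library and without either LPS plus VD3 library among them, with p up to 0.36. The Tspan5 call after LPS was lost without control 1 (edgeR adjusted p = 0.0617).

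Among other sheddases and inhibitors, 2 of 9 rose and 1 fell after LPS, close to the share of all genes. Timp1, a secreted metalloprotease inhibitor, rose by 3.11 ± 0.33, from 11 and 12 counts to 99 and 64. The sheddase gene Adam9 rose by 0.69 ± 0.15, and Adam8 had -0.88 ± 0.21, both calls being lost without control 1 or control 2. Adam19 had 2 and 0 counts in control, 4 and 5 in LPS, then 23 and 16 in LPS plus VD3. It entered the tests only through its LPS plus VD3 libraries. Adam19 passed in LPS plus VD3 against control (edgeR adjusted p = 0.00114), a call that this entry favours, and missed the threshold in LPS plus VD3 against LPS (0.0773).

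Of 15 tested genes of other membrane proteins cut by ADAM17 or ADAM10, 8 rose and 3 fell after LPS, 73.3% called against 31.8% of all genes. Tnf, the best known substrate of ADAM17, rose by 6.63 ± 0.22, the chemokine Cxcl16 by 4.39 ± 0.20, the TNF receptor gene Tnfrsf1b by 2.49 ± 0.16 and the adhesion molecule Icam1 by 2.31 ± 0.15, on the log2 scale. Cd40 had 0 counts in control and 401 and 248 in LPS, 266-fold higher against a floor of 3 counts over the control group. Il6ra, the interleukin-6 receptor gene, had -2.15 ± 0.25, the fractalkine gene Cx3cl1 -1.74 ± 0.25 and Mertk, a receptor for dying cells, -1.04 ± 0.15. With VD3 added, 3 of the 15 fell and none rose in the edgeR test, 20% called against 3.83% of all genes (1.59% lower). Cd40 fell by 2.14 ± 0.28, Cxcl16 by 0.93 ± 0.17 and Icam1 by 0.88 ± 0.15. Each of these 3 calls was lost without LPS plus VD3 1 or LPS plus VD3 2, and that of Cxcl16 with no filter as well.

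**Figure D5:**
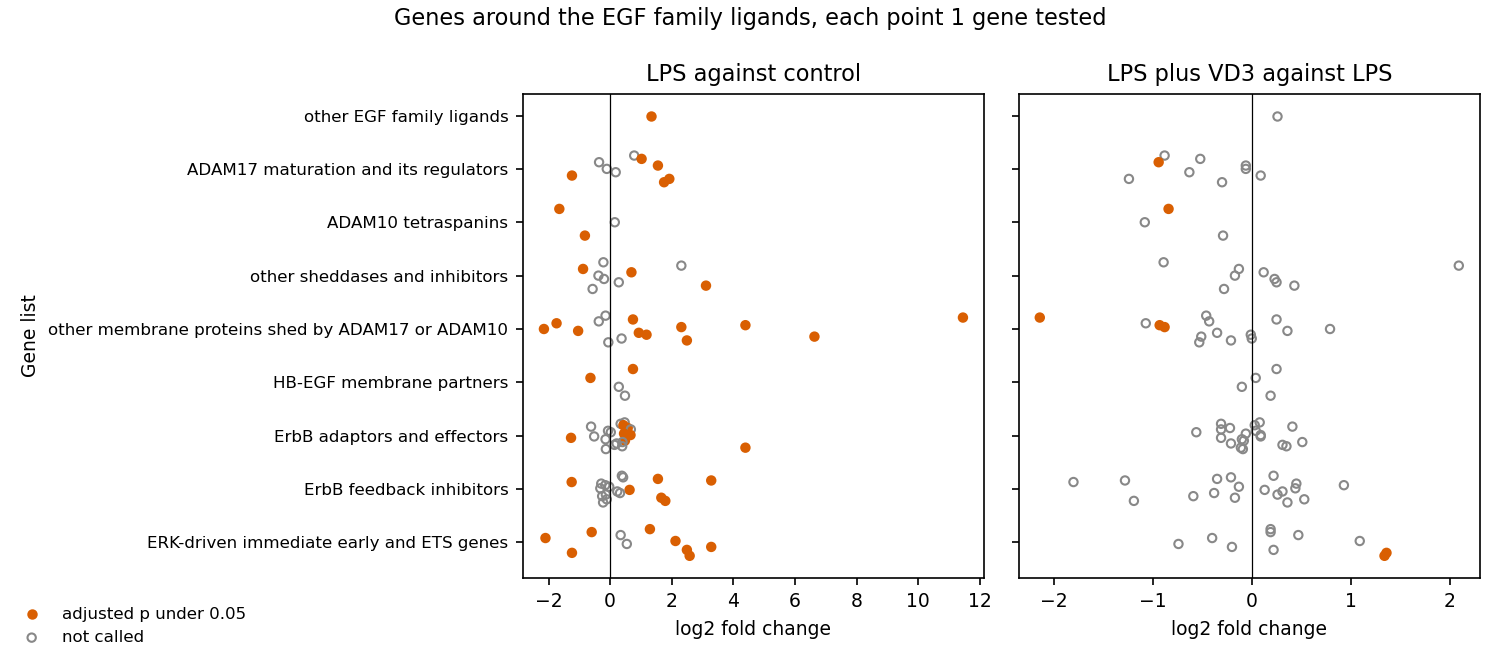
Log2 fold change of each tested gene of the 9 lists that had any, after LPS (left) and with VD3 added to LPS (right), filled where the edgeR adjusted p was under 0.05; the horizontal axes differ. After LPS 31 of 88 genes rose and 13 fell, and with VD3 added 2 rose and 5 fell.

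Of 4 tested membrane partners of HB-EGF, 1 rose and 1 fell after LPS, 50% called against 31.8% of all genes. None of the 4 passed the edgeR test with VD3 added, where 3.83% of all genes did. Cd9, a tetraspanin that binds the HB-EGF precursor, had 9099 and 9783 counts in control, 10058 and 8507 in LPS, then 8766 and 8541 in LPS plus VD3, and passed in no comparison. Cd44 rose by 0.74 ± 0.16 and Cd81 had -0.64 ± 0.16 after LPS, calls that were both lost without control 1 or control 2. Among 20 ErbB adaptors and effectors, 6 rose and 1 fell after LPS, 35% against 31.8% of all genes. The kinase gene Src rose by 4.39 ± 0.26 and Plcg1, a phospholipase C gene, had -1.27 ± 0.24. The other calls were Grb2, Pik3ca, Nras, Map2k1 and Ptpn11, at 0.43 to 0.66, and each of these 5 was lost without scaling beyond library size and without control 1 or control 2. With VD3 added none of the 20 passed the edgeR test, against 3.83% of all genes.

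Of 18 tested feedback inhibitors of ErbB signalling, 5 rose and 1 fell after LPS, 33.3% called and near the 31.8% of all genes. Dusp4, a phosphatase of MAP kinases, rose by 3.28 ± 0.46 from 2 and 7 counts, Spred1, an inhibitor of the Ras pathway, by 1.66 ± 0.19 and Dusp1 by 1.55 ± 0.28, while Dusp5 had -1.25 ± 0.31. Dusp5 lost its call without control 1 and in DESeq2. Spry1 (1.79 ± 0.46) and Ptpn1 (0.63 ± 0.16) rose as well, and both calls were lost without control 1 or control 2. The Spry1 call was also lost in DESeq2, and that of Ptpn1 without scaling beyond library size and with the deposited log2 values. With VD3 added none of the 18 passed, against 3.83% of all genes. Errfi1, the direct inhibitor of Egfr, had 31 and 38 counts in control, 23 and 27 in LPS, then 49 and 46 in LPS plus VD3. It was at 0.93 ± 0.27 with VD3 added (edgeR adjusted p = 0.10), so both LPS plus VD3 libraries were above the other 4 but the test was not passed.

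Of 10 immediate early and ETS family genes downstream of ERK, 5 rose and 3 fell after LPS, 80% called against 31.8% of all genes. Ier3 rose by 3.28 ± 0.25, Phlda1 by 2.58 ± 0.18 and Junb by 2.49 ± 0.28, while Fos had -2.10 ± 0.32 and Myc -1.24 ± 0.20. Fosl1 (2.12 ± 0.57) and Egr1 (1.29 ± 0.30) rose too, and Egr2 had -0.60 ± 0.15. The calls of Fosl1, Egr1 and Egr2 were lost without control 1. Those of Egr1 and Egr2 were also lost without control 2, that of Egr1 in DESeq2 and that of Fosl1 without LPS 1. With VD3 added, Phlda1 rose by 1.34 ± 0.16 (edgeR adjusted p = 0.00163), with 677 and 610 counts in LPS, against 1433 and 1836 in LPS plus VD3. Myc rose by 1.36 ± 0.21 (edgeR adjusted p = 0.006), from 116 and 95 counts to 228 and 315. Both calls were lost without LPS plus VD3 2, where the edgeR adjusted p was 0.0525 for Phlda1 and 0.117 for Myc.

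The genes most like Hbegf and Areg over the 6 libraries were looked for among 9062 other genes, by Pearson's r of log2 CPM, as a description without p. The 5 closest to Hbegf were Minpp1 (r = 0.9973), Sik3 (0.9969), Tmed2 (0.9949), Cdk17 (0.9938) and Irf4 (0.9928). Irf4, a transcription factor gene, stood at 51.2 and 56.4 CPM in control, 72.0 and 71.2 in LPS, then 185 and 189 in LPS plus VD3, while Tmed2, a vesicle trafficking gene, moved over a narrow range, from 386 to 480 CPM. Closest to Areg were Papd7 (0.9986), Ikbke (0.9977), Mapkapk2 (0.9974), F10 (0.9973) and Lcn2 (0.9972). Mapkapk2, the p38-activated kinase gene, stood at 272 and 252 CPM in control, 1210 and 944 in LPS, then 797 and 728 in LPS plus VD3. Over 6 libraries such values are easily high: 79 genes had r over 0.95 with Hbegf and 543 with Areg, and LPS 1 lay above LPS 2 for all 5 genes closest to Areg as it did for Areg.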

How the data were processed

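RNA from 6 libraries of mouse alveolar macrophages was made into libraries with the KAPA mRNA HyperPrep kit, per the labels' protocols. TopHat2, edgeR and the mm10 build appear in the submitters' processing notes. Counting program, annotation and strand setting are, in the sources used here, not given, so counts of overlapping genes are uncertain. The authors deposited raw counts, whole numbers for each gene and library. The second deposited table holds log2 values, which equal log2(CPM + 1) of the counts within 0.00423; it lists 3 of the 8 genes and was used in an alternative only. The members and lists were chosen with earlier results of these data known.

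The test was run in R 4.3.3 with edgeR 4.0.16: filterByExpr (minimum count 10, minimum total 15), TMM scaling, a quasi-likelihood fit (glmQLFit without the legacy option) of 3 group means to all 6 libraries with no block, and Benjamini-Hochberg adjustment over all 10724 genes at 0.05. The SE is the size of the log2 fold change over the square root of F. The fit was tested on simulated data. CPM are TMM-scaled, with SD over 2 libraries. Exon lengths (union of exons) and GC content (longest coding transcript, 91.9% of genes matched) came from GENCODE M21. In each group the 2 libraries differed by more than sampling noise (a chi-square over its degrees of freedom of 2.45 in control, 25.3 in LPS and 9.64 in LPS plus VD3). Floors of 3 counts cover counting error of the group at 0 only, not that of the higher group. Reads are not independent molecules, so other spread is not covered either. Named list genes are up to 4 per list and comparison with the smallest p among those called, plus any needed for a count of 5 or fewer, and the 5 genes with the highest r to Hbegf and to Areg (mean log2 CPM of at least 2); other list genes given with values, the genes around Areg and the chemokines there were chosen after their values were seen. Alternatives were RLE scaling, no scaling, DESeq2 1.42.0, limma-voom (limma 3.58.1), no filter, only the libraries compared, the replicate number as a block, each library left out and limma on the deposited log2 values.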

Additional observations from a re-analysis of the deposited data

How the results depend on the processing

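Every LPS difference of Hbegf, Areg, Ereg and Adam10 kept its sign and its call in 13 or 14 alternatives. The alternatives reuse the LPS libraries against which the VD3 differences of Hbegf and Areg were noticed. Areg also entered the tests through its treated libraries, so its steady call does not remove these limits. Adam17 lost its call without control 2, alone among the alternatives, in both comparisons with control. Leaving out libraries in turn gave, for LPS against control, 1940 to 4829 genes called (3411 with all) and 28 to 55 list genes (44), for LPS plus VD3 against control 2126 to 5410 (3749) and 34 to 66 (52), and for LPS plus VD3 against LPS 55 to 3670 (411) and 0 to 41 (7). The highest of these last values came without LPS 2 and the lowest without LPS plus VD3 2. In that comparison 169 genes and 4 list genes were called with no filter beyond 1 count and 258 genes in a fit of the libraries compared only; the causes were not tested. With libraries left out, the log2 difference of Adam17 ran from 0.62 to 1.04 in LPS against control and from 0.77 to 0.85 in LPS plus VD3 against control; without scaling it was 0.56 and 0.49, and 0.55 and 0.50 with the deposited log2 values. In LPS plus VD3 against LPS, Areg ran from -1.64 to -0.95, Adam17 from -0.24 to 0.21 (0.21 without LPS 2 and 0.02 without LPS plus VD3 2, against -0.03) and Adam10 from -0.17 (without LPS 1) to 0.50, and Hbegf was 3.53 in the deposited log2 table. In LPS plus VD3 against control, Hbegf ran from 4.64 to 5.13 and Areg from 3.85 to 4.90, and Hbegf was 4.54 without scaling and 4.4 in the deposited log2 table. That table adds 1 to each CPM, which understates differences of low genes.

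The labels number the libraries 1 and 2 in each group. For LPS plus VD3 the number is written on LPS (LPS1 plus VD3 and LPS2 plus VD3). The labels do not say that a number marks a shared mouse, culture or day. Deviations from the group means of equal-numbered libraries correlated across genes with r = 0.172 (control and LPS), 0.0894 (control and LPS plus VD3) and 0.196 (LPS and LPS plus VD3). With the replicate number as a block, 1152 genes and 16 list genes were called in LPS plus VD3 against LPS, and 3986 and 4432 genes in the comparisons with control. With few reads, Btc, Tgfa, Egfr and the other ErbB receptors stayed below what 5022314 to 5465223 counts per library can compare.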
